A study of Mus musculus with 8 samples.

Results

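The regions described here carried an ATAC-seq summit in both Day 12 libraries of a PU.1 restoration course, total viable cells and CD11b-high cells, and in none of the libraries of restoration Day 0, 4 and 8. There were 553 such regions, called members below, among 68800 regions in all, which is 0.804%. They were found by extending every peak summit by 150 bp to each side, merging overlapping intervals over the 8 lists, and counting a region as open wherever a list placed a summit inside it. The open or not-open calls of Day 0, 4, 8 and 12 therefore chose the members and are no result about them. Their position relative to genes and their open or not-open state after withdrawal of the drug were not used to choose them, although off-Dox summits took part in the merging.

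The cells were AML246, a mouse acute myeloid leukaemia line grown with IL-3. ATAC-seq marks accessible DNA by letting a transposase insert sequencing adapters into it. Doxycycline (Dox) was given at 0.1 µg/mL from Day 0 and withdrawn at Day 12 of a course of 24 days, and per the labels PU.1 was restored on the drug and knocked down again off it. The 8 groups of 1 library each were untreated total viable cells (Day 0), total viable cells after 4, 8 and 12 days of Dox, CD11b-high viable cells after 12 days of Dox (labelled MAC1), and total viable cells at 4, 8 and 12 days off Dox. All groups were the same line, the sources used here do not name the construct behind the knockdown, and nothing says whether both Day 12 libraries came from 1 culture. The total cells of Day 12 can include CD11b-high cells, so the second library is no replicate of the first. With 1 library per group no test between conditions was made, and no p-value is given. Intervals are exact Clopper-Pearson 95% intervals, cover counting error only, and treat neighbouring regions as independent.

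PU.1, encoded by Spi1, is an ETS-family transcription factor that binds purine-rich sites with a GGAA core and is required for the formation of macrophages and granulocytes. At many myeloid genes it binds enhancers away from the promoter and makes nucleosomal DNA accessible to partners such as the C/EBP factors. CD11b, the product of Itgam, pairs with the product of Itgb2 to form the integrin MAC1, a surface marker of mature myeloid cells.

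The members fell into sets of similar size by a single measure, the distance from the region's edge to the nearest summit of the Day 0, 4 or 8 lists. Of the 553 members, 288 (52.1%, 47.8 to 56.3) had an earlier summit within 1 kb and are called beside. The other 265 had none and are called apart. Among 1699 regions open only in total cells of Day 12 and 1981 open only in CD11b-high cells, chosen by the same rule for the earlier days, 40.3% (38.0 to 42.7) and 33.5% (31.4 to 35.6) lay within 1 kb of an earlier summit. Calls made in both Day 12 lists thus lay close to earlier summits more often than calls made in 1 of them, with intervals that did not overlap. The smallest distance was 151 bp, which the merging rule sets, and the median of all members was 762 bp.

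**Figure D1:**
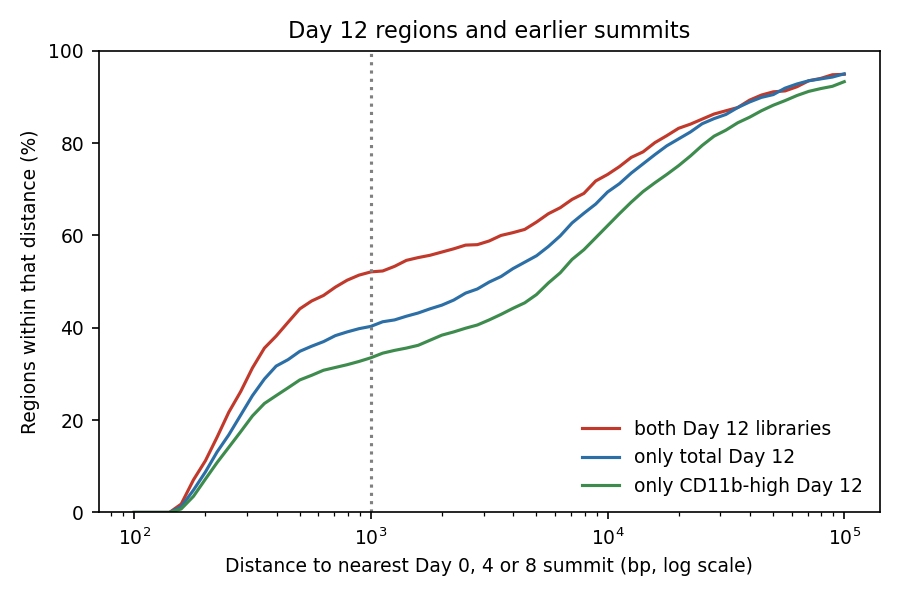
Share of regions (vertical axis, percent) whose edge lay within a given distance (horizontal axis, bp, log scale) of a Day 0, 4 or 8 summit, for the 553 members and the regions of only 1 Day 12 list; the dotted line marks 1 kb. At that line the members reached 52.1%, total-only regions 40.3% and CD11b-high-only regions 33.5%.

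RefSeq promoter windows of build GRCm38.p6 (mm10), 250 bases before to 50 after the start, held both Day 12 summits of a member for 40 protein-coding genes. In 36 of them the member was beside an earlier summit, and in 4 it was apart: Cd180, Bcl2a1b, Sirpb1c and Gm14322. They are named because they are the only ones apart, which was seen from the values. The first 3 are shown with Nlrp3, whose nearest earlier summit was 976 bp away, and Coro1a, as a promoter beside an earlier summit. Coro1a was picked from the 36 by no set rule and after the values were seen, so it does not stand for them. The sequences are the 150 bases before the start, 5′ to 3′ on the strand of the gene, and capitals mark matches to the motifs listed further down.
Cd180 (chr13:102693397-102693546, + strand): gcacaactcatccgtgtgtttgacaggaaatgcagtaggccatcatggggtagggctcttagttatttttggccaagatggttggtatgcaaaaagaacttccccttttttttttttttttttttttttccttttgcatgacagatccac
Bcl2a1b (chr9:89199123-89199272, + strand): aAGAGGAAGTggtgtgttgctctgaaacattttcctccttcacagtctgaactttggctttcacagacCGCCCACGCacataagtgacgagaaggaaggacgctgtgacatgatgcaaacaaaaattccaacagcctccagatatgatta
Sirpb1c (chr3:15848488-15848637, - strand): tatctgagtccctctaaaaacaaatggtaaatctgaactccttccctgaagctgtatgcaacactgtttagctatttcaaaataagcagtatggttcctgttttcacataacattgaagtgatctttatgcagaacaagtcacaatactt
Nlrp3 (chr11:59542536-59542685, + strand): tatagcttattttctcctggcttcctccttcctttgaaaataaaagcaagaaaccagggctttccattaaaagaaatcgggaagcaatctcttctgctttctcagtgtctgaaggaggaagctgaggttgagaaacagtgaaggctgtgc
Coro1a (chr7:126704221-126704370, - strand): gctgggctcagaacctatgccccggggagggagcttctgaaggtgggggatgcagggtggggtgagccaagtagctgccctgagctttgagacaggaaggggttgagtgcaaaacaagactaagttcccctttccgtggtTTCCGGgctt

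Cd180 encodes a leucine-rich repeat receptor related to Toll-like receptor 4. Its member (chr13:102693346-102693657) scored 5.69 in total cells and 4.24 in CD11b-high cells, with summits 51 and 40 bp before the start, and 14636 bp from any earlier summit. It was not open at 4, 8 or 12 days off. The score is the authors' value for each summit, taken for a −log10 p or q, and moves with depth, so it is used only within a list. At Bcl2a1b, an anti-apoptotic BCL2 relative of leukocytes, the member (chr9:89198917-89199405) scored 6.82 and 2.32. Its summits lay 206 and 18 bp before the start, and it was not open at any time off. Bcl2a1b belongs to a family of very similar copies, as do Sirpb1c and Gm14322, and the sources used here do not say how reads that match several copies were placed.

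Sirpb1c, of the SIRP family of paired myeloid receptors, had a member (chr3:15848402-15848721) with low scores of 2.20 and 4.01, 1386 bp from an earlier summit and not open off Dox. The member at Gm14322 (chr2:177759041-177759458) scored 3.57 and 4.24. Of the promoters apart it alone was open off Dox, at 4 days (7.23) and 8 days (8.08). The Nlrp3 gene encodes an inflammasome sensor. Its member (chr11:59542541-59542846) scored 6.78 and 4.88, with summits 5 and 10 bp after a RefSeq start, and was not open off Dox. That start is inside the gene, and the member lay 1124 bp from the upstream end of the gene's span. The region over this upstream end (chr11:59541338-59541715) was open in all 8 libraries, scoring 10.2, 16 and 24.1 in the lists before Day 12, then 12.9 in the total and 3.90 in the CD11b-high list. Off Dox it scored 26.3, 23.6 and 9.95. Coro1a, an actin-binding protein of leukocytes, had a member (chr7:126704158-126704471) at scores of 7.25 and 14.0, with an earlier summit 247 bp from its edge and no summit off Dox. Of 39 members with both summits in such a window, 24 were not open at any time off. Among all 553 members 262 were open at none of these times, and among the 288 beside an earlier summit 148 were. For members beside, not open mostly meant a summit called next door, as described below.

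Over the 40 windows, no motif had a share whose interval missed the share of all promoters. Matches were counted on both strands over the whole 300 bases, and motifs may overlap one another. AGAGGAAGT, a PU.1 form, occurred in 1 of the 40, at Bcl2a1b (2.50%, 0.0633 to 13.2), beside 1.05% of 17492 protein-coding promoters with 1 window per gene. The ETS core CCGGAA was in 22.5% (10.8 to 38.5) of the member windows, 18.9% of all promoters and 34.8% of 6250 promoters that held a Day 12 summit of a region open at Day 0, 4, 8 and 12. The AP-1 form TGANTCA was in 10.0% (2.79 to 23.7), 7.05% and 3.94% of the same sets. The C/EBP form TTGCNNAA was in 5.0% (0.611 to 16.9) and 10.2% of all promoters, TGTGGT of RUNX in 7.50% and 15.3%, AGATAA of GATA in 7.50% and 9.86%, and CACGTG in 7.50% and 7.75%. An IRF motif, the MAF form TGCTGAC and the EGR form GNGTGGGCG were each in 1 window, or 2.50%, beside 3.42%, 4.29% and 3.76% of all promoters. In the 6250 promoters named above, the C/EBP, RUNX, GATA and CACGTG shares were 7.60%, 12.3%, 4.90% and 11.7%. Those of PU.1, IRF, MAF and EGR were 1.12%, 2.66%, 3.68% and 6.40%. A match is a description of these letters, not a binding site.

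Members beside an earlier summit were mostly second summits next to a region that was already accessible. Each was paired with the nearest region holding an earlier summit within 1 kb. In 253 of the 288 pairs (87.8%) that adjoining region was open at Day 0, 4 and 8, and in 199 (69.1%) it was open in all 8 libraries. The adjoining region also kept its own summit in both Day 12 lists in 226 pairs (78.5%), had one in a single Day 12 list in 36 and had none in 26. In 11 pairs it was open at Day 0, 4 and 8 and in neither Day 12 list, so that the call sat in one place before Day 12 and in the other at Day 12. The deposited names show 1 summit per peak, and the peaks' widths are not used here.

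**Figure D2:**
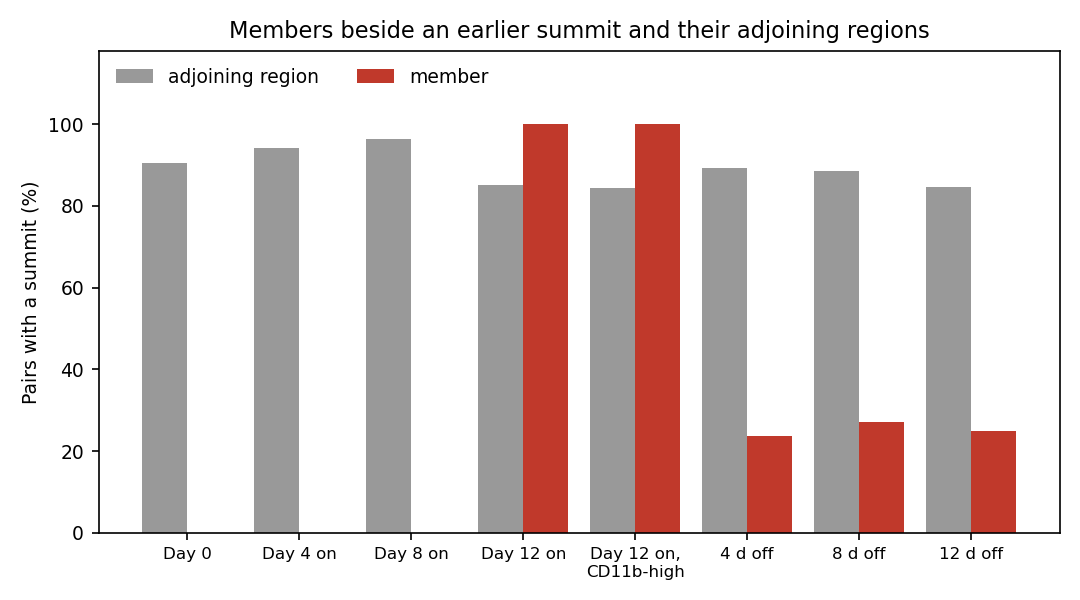
Share of 288 pairs (vertical axis, percent) with a summit in the adjoining region (grey) and in the member (red) in each of the 8 libraries. Grey bars stay between 84.4% and 96.5%, while red bars are 0 before Day 12 and 100% at Day 12 by the rule, and 23.6%, 27.1% and 25% at 4, 8 and 12 days off.

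Close pairs of summits were more common in the Day 12 lists in general. Summits with another summit of the same list within 1 kb made up 17.9% of the total list and 17.9% of the CD11b-high list of Day 12, against 12.8%, 11.5% and 16.6% in the lists of Day 0, 4 and 8, and 14.7% to 16.5% off Dox. The median score was also lowest in these lists, at 9.41 and 9.44 against 10.1 to 12.6 in the others. The part of this spacing in the number of members beside an earlier summit was not tested. The lists held 31957 to 51175 summits, with 85 to 121 of each on other contigs and not used, and the sources used here give no read depth. A summit in bulk cells does not tell whether more cells carry an accessible site or whether the site is more accessible per cell.

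Kit, which encodes the stem cell factor receptor, showed such a pair. The region over the start of the gene (chr5:75574744-75575153) was open in all 8 libraries, with scores of 30.9, 38.2 and 38.1 before Day 12, then 18.4 in the total and 19.3 in the CD11b-high list, and 49.3, 32.7 and 27.4 off Dox. The member inside the gene (chr5:75575651-75575960), 703 bp from the nearest earlier summit, scored 26.1 in total and 17.2 in CD11b-high cells. It was open again at 4 days off (32.4) and 12 days off (20.5), and not at 8. At Day 12 the Kit member scored above its neighbour in the total list and below it in the CD11b-high list.

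At Tfeb, the master regulator of lysosome genes, the member scored above its neighbour wherever it had a summit. The member (chr17:47737410-47737997), with its summits 86 and 84 bp before a start, scored 14.4 and 17.8 at Day 12 and 11.5 at 12 days off. The adjoining region (chr17:47738010-47738446) had low scores of 4.35, 7.13 and 6.14 before Day 12 and 8.14, 9.26 and 3.59 off Dox, and no summit in either Day 12 list. The Src-family kinase gene Lyn had a member (chr4:3678378-3678702) inside the gene, 472 bp from the nearer end of its span, at scores of 10.9 and 12.7. Its adjoining region (chr4:3678805-3679110) had a summit in the lists of Day 4 (6.23), Day 8 (12.8) and CD11b-high cells (8.19) alone. Csf2ra, the GM-CSF receptor alpha chain, had a member (chr19:61226459-61226800) at 7.45 and 5.88, beside a region (chr19:61226985-61227908) that scored at least 34.8 in all 8 libraries.

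All 12 members with the highest scores, ranked by the lower of the 2 Day 12 scores, were beside an earlier summit. The first was inside Fam174a (chr1:95313918-95314238), with 38.6 in total and 40.3 in CD11b-high cells, 63.9 at 4 and 44.7 at 8 days off, and no summit at 12. Its neighbour (chr1:95313433-95313803) scored 38.2, 51.6 and 57.4 at Day 0, 4 and 8 and 32.2 at 12 days off, and had no summit where the member had one. The Fam174a pair exchanged its call in every library. At the mismatch repair gene Msh3 the member (chr13:92354554-92354884) was open at Day 12 (33.3 and 43.8) and 4 days off (49.8), and the neighbour (chr13:92354899-92355208) before Day 12 and again 8 and 12 days off. Xrn2, an exoribonuclease of transcription termination, exchanged in the same manner, with its neighbour (chr2:147012860-147013173) open at Day 0, 4 and 8 and 4 days off.

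Celf5, an RNA-binding protein, and Prcp, a lysosomal carboxypeptidase, had the highest members that were open at all 3 times off. The Celf5 member (chr10:81465268-81465651) scored 35.2 and 33.6 at Day 12 and 57.6, 54.9 and 32.8 off Dox, and its neighbour (chr10:81464415-81464763) was open through Day 12 and in no list off Dox. That of Prcp (chr7:92875010-92875348), 74 bp outside the gene, scored 32.4 and 33.3 at Day 12 and 50.4, 35.1 and 30.6 off Dox. The next 4 of this kind were assigned to Spag9 (lower score 12.8, 7774 bp outside the gene), Cyb5d2 (12.0), Atp6v0c (9.11), a subunit of the proton pump that acidifies lysosomes, and Wdr13 (8.01). High members with no summit off Dox lay at Zfat (26.9 and 32.4), the membrane adaptor gene Ank3 (26.8 and 31.3), Cpeb2 (24.7 and 23.1), the methyltransferase gene Nsd3 (23.9 and 20.2) and Trrap (18.9 and 19.6), a scaffold of histone acetyltransferase complexes. Zcchc7, Naa38 and Zfp1 were also among the first 12, with lower scores of 26.6, 22.1 and 21.5.

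Scores were higher in members beside than in members apart at the median, with overlap. Beside an earlier summit the median was 8.01 in total and 8.27 in CD11b-high cells, at the 43.0th and 44.0th percentile of those lists. Apart it was 4.96 and 4.24, at the 18.4th and 14.9th percentile. Both Day 12 scores were 10 or more in 80 members beside and in 0 apart. The same few score values recurred among weak summits: 48.7% of the members apart had 1 of the 5 commonest values of the total list (3.57 to 7.99) and 47.9% 1 of the 5 commonest of the CD11b-high list (3.25 to 7.48), against 2.08% and 2.43% of those beside.

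**Figure D3:**
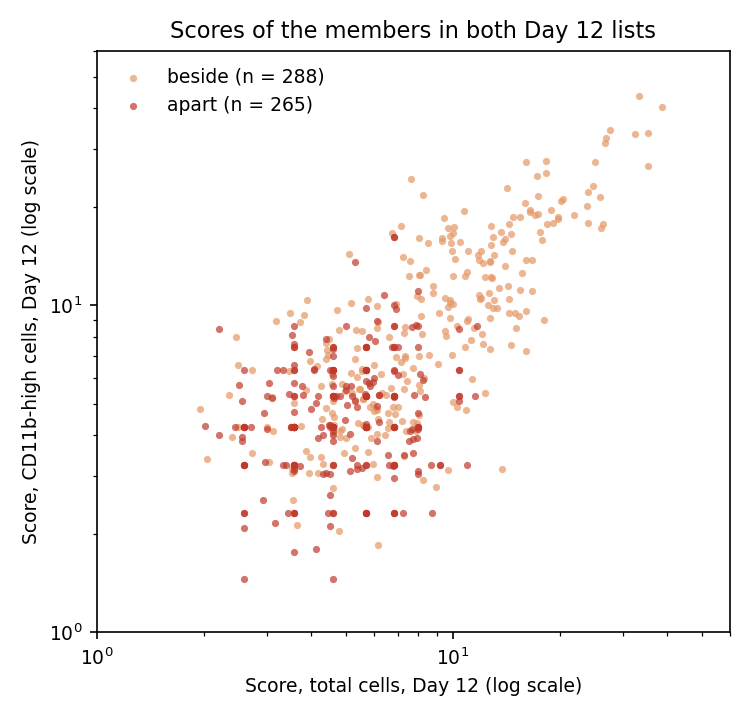
Score of each member in total cells (horizontal) and CD11b-high cells (vertical) of Day 12, both on log axes, for the 288 members beside an earlier summit and the 265 apart; levels on the axes are not comparable with each other. The members apart lie low and in rows and columns of recurring values, and those beside reach 38.6 and 43.8.

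The merging places both Day 12 summits of a member near each other, so the gap between them is a description. It had a median of 30.0 bp, and 66.5% were within 50 bp; the values were 27.0 bp and 66.9% in 18733 regions open in all 8 libraries, which carry the same condition. Members apart had a median gap of 33.0 bp and members beside one of 25.5 bp. Across members, Spearman's rho between the 2 scores was 0.75 beside and 0.19 apart, a description over regions that share the same 2 libraries.

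Genome position also differed between the sets, but it is not independent of the split by distance to earlier summits. Regions open at Day 0, 4, 8 and 12 lay near gene ends more often than all regions, as given below. A gene end here is either end of the gene's span, so it can be the side of the start. Of the members beside an earlier summit, 62.8% (57.0 to 68.4) were within 1 kb of a protein-coding gene end and 22.6% (17.9 to 27.8) farther inside a gene. Of the members apart, 4.91% (2.64 to 8.24) were near a gene end, 48.3% (42.1 to 54.5) inside a gene and 46.8% (40.7 to 53.0) outside genes. Regions gained at Day 4, 8 and 12, which opened earlier, had 8.41% (7.50 to 9.40) near gene ends, 49.6% inside a gene and 42.0% outside genes. Of all 68800 regions the shares were 21.9%, 41.9% and 36.3% in the same order. Regions open at Day 0, 4, 8 and 12 had 40.1% near gene ends. The pooled value of 35.1% (31.1 to 39.2) for all members therefore described neither set. Regions of only 1 Day 12 list split in the same manner, at 59.7% and 5.82% for total-only and 56.7% and 4.10% for CD11b-high-only regions, beside and apart. Of these regions apart, 49.0% of total-only and 48.8% of CD11b-high-only lay inside a gene, and 45.2% and 47.1% outside genes. The shares of the members apart were thus not particular to them. By chromosome the members made up 0.580% (chromosome 12) to 1.37% (chromosome X) of the regions of each chromosome, and 0 of 9 on Y, and 12 members lay within 10 kb of another one.

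After withdrawal of Dox, members apart were often still open at 4 days and seldom at 12. Off Dox, 51.7% (45.5 to 57.9) of the 265 had a summit after 4 days, 20.8% (16 to 26.1) after 8 and 9.43% (6.20 to 13.6) after 12. By pattern, 114 were open at none of these times, 90 at 4 days alone, 28 at 4 and 8 days and 16 at all 3. Members beside an earlier summit gave 23.6% (18.8 to 28.9), 27.1% (22 to 32.6) and 25% (20.1 to 30.4), and 148 of 288 were open at none. For these, a summit lay in the member or within 1 kb of it in 98.6%, 96.9% and 93.4% of cases off Dox, so not open there mostly meant a summit called next door. For members apart the same shares were 52.5%, 21.1% and 9.81%.

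List length moved with these shares, since the list at 4 days off was the longest and that at 12 days off the shortest. With the off-Dox lists cut to their best 31867 summits, members apart were open in 20.4% (15.7 to 25.7), 12.5% (8.73 to 17.0) and 9.43%, so the distance between 4 and 12 days was less than with full lists. Members beside were then open in 17.7% (13.5 to 22.6), 20.1% (15.7 to 25.2) and 25%. Of all 68800 regions, 72.7% were open at 4 days off, 59.0% at 8 and 45.3% at 12, so members of both sets were open less often than regions at large, most of which were open in several lists.

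**Figure D4:**
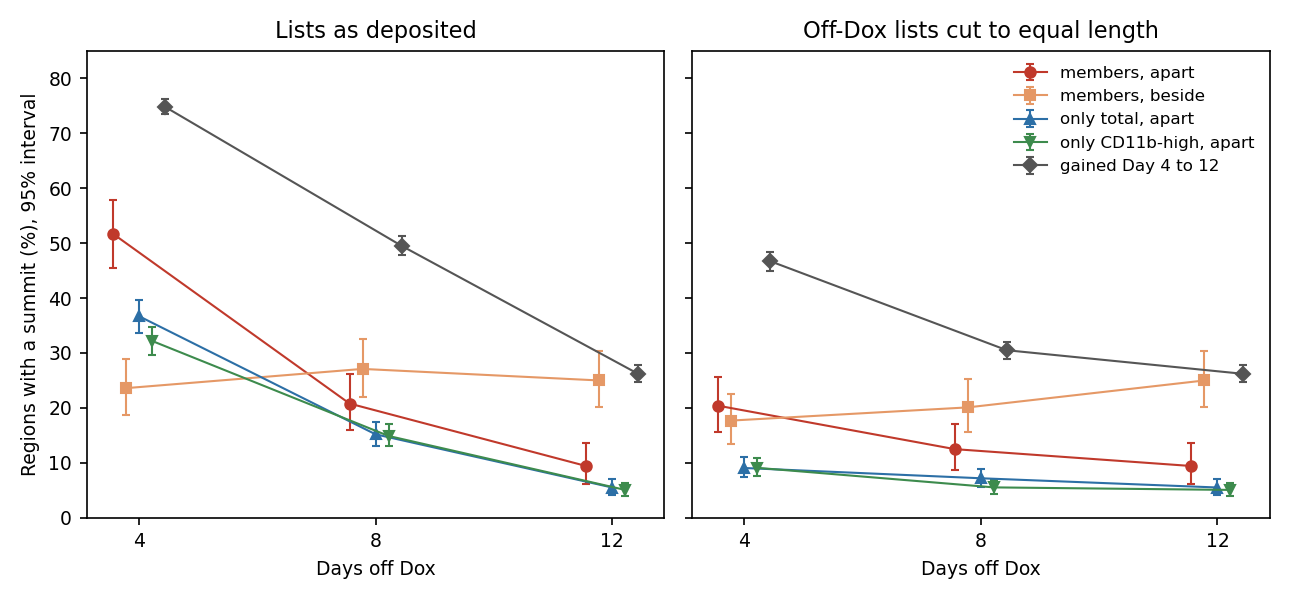
Share of regions with a summit (vertical axis, percent, bars are 95% intervals) at 4, 8 and 12 days off Dox (horizontal axis), with full lists on the left and lists of equal length on the right; points are set slightly apart for legibility. Members apart go from 51.7% to 9.43% on the left and from 20.4% to 9.43% on the right, while gained regions lie highest at 4 days on both sides, at 74.8% and 46.7%.

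Regions called in both Day 12 lists were open off Dox more often than regions called in 1 of them. All 553 members together were open in 37.1% (33.0 to 41.2), 24.1% (20.5 to 27.8) and 17.5% (14.5 to 21.0) at 4, 8 and 12 days off. Total-only regions gave 27.9% (25.8 to 30.1), 14.2% (12.6 to 15.9) and 7.71% (6.49 to 9.08), and CD11b-high-only regions 26.5% (24.5 to 28.5), 13.1% (11.7 to 14.7) and 7.12% (6.02 to 8.34). Among regions apart the 4-day shares were 51.7% for members, 36.7% (33.7 to 39.7) for total-only and 32.2% (29.7 to 34.8) for CD11b-high-only regions. At 8 and 12 days off the interval of the members apart overlapped those of both other sets. In the same order the shares were 20.8%, 15.2% and 14.9% at 8 days. At 12 days they were 9.43%, 5.52% (4.20 to 7.11) and 5.08% (3.96 to 6.41).

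Since scores could differ between these sets, regions apart of like score were set side by side at 4 days off, in score ranges chosen after the values were seen. By the total list, below a score of 4, 49.4% (37.9 to 60.9) of members and 31.3% (26.8 to 36.1) of total-only regions were open. From 4 to below 6 it was 53.8% (43.8 to 63.5) and 39.0% (34.6 to 43.7), and from 6 to below 10 it was 54.9% (42.7 to 66.8) and 43.0% (34.9 to 51.3). At 10 or more, 2 of 9 members and 3 of 5 total-only regions were open. By the CD11b-high list, members and CD11b-high-only regions gave 47.5% (36.2 to 59.0) and 24.8% (21.1 to 28.8) below 4, and 54.2% (44.8 to 63.3) and 35.7% (31.8 to 39.8) from 4 to below 6. From 6 to below 10 they gave 52.5% (39.1 to 65.7) and 39.6% (33.1 to 46.5), and at 10 or more 3 of 6 and 2 of 4. The intervals did not overlap below a score of 6 and overlapped from 6 upwards, in both lists. Whether being called in 2 lists by itself goes with a higher chance of a call elsewhere was not tested. Gained regions, called in 3 restoration lists, stood higher, at 74.8%, 49.5% and 26.2%.

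Members apart were also ranked by their lower score, after the values were seen, and the first 12 were taken. The last 2 places, at Usp25 and on chromosome X, share their score with 4 further members apart that are not shown. The 12 included Lair1, an inhibitory collagen receptor of leukocytes. Its member (chr7:4026826-4027171) lay inside the gene, 35990 bp from an earlier summit, with scores of 7.99 and 11.1 at Day 12, 15.3 at 4 and 7.08 at 8 days off and none at 12. Ptger4, the prostaglandin E2 receptor EP4, had one inside the gene (chr15:5236555-5236880) at 6.91 and 9.76, open at 4 days off (8.82) and 8 days off (6.76). Near Apbb1ip, which links the GTPase Rap1 to integrin activation, a member 8965 bp outside the gene (chr2:22746856-22747157) scored 7.69 and 8.57 and was not open off Dox. Lair1 and Ptger4 were thus still called at 8 days off and no longer at 12, and Apbb1ip was called at Day 12 alone.

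The highest member apart lay inside Clca3a1 (chr3:144736876-144737181), at 11.7 and 8.64, with 6.20 at 4 and 8.08 at 8 days off. Others of the 12 lay inside Galk2, Tasp1, Gm38469 and Usp25 and 15785 bp outside A1cf, and 3 had no gene within 100 kb. Of these 3, the region at chr4:105704279-105704661 was open at all times off, at 14.5, 19 and 6.61.

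**Figure D5:**
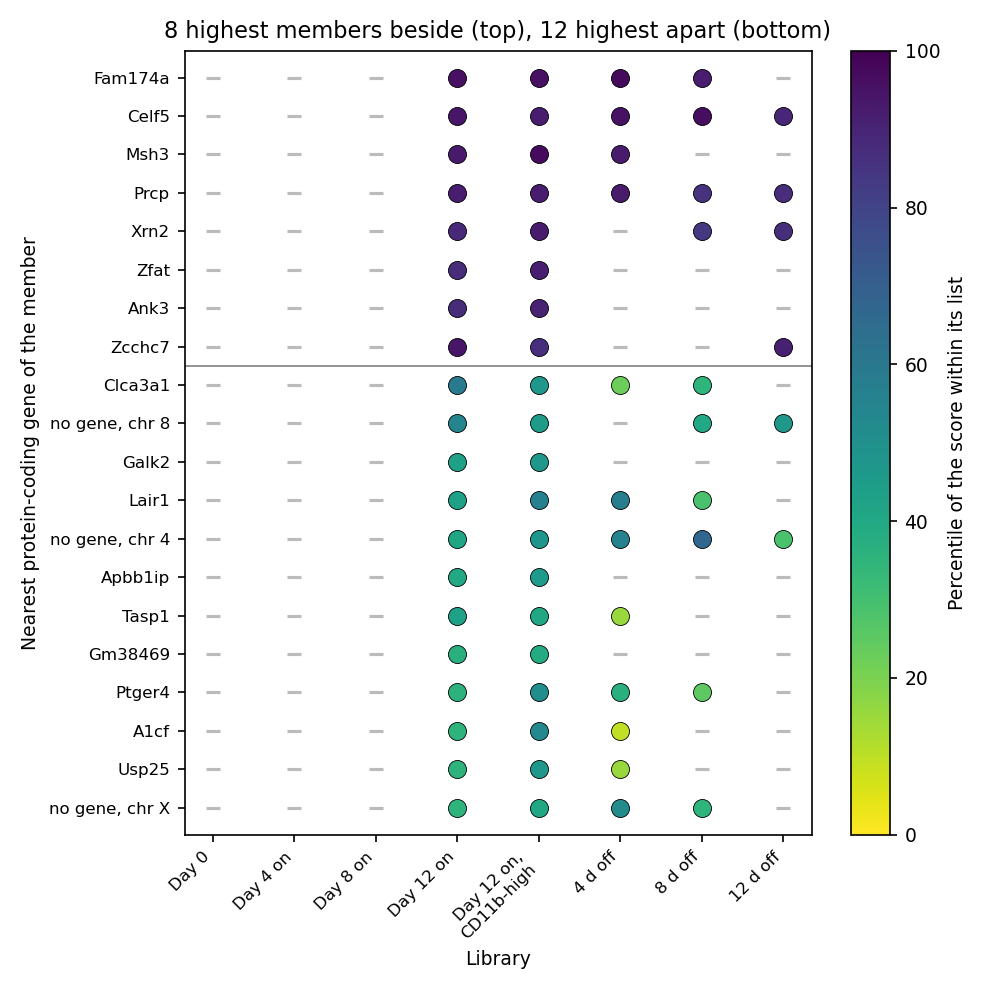
Percentile of the summit's score within its own list (colour scale) for the 8 highest members, all beside an earlier summit (above the line), and the 12 highest apart (below it), by library (columns); grey dashes mark no summit. The upper 8 lie in the darker range in both Day 12 lists, and only the regions at Celf5, Prcp, Xrn2 and Zcchc7 above and 2 regions without a gene below have a summit at 12 days off.

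Of the 16 members apart that were open at all 3 times off, 12 were assigned to a gene. Ms4a2, the beta chain of the IgE receptor of mast cells and basophils, had one 3896 bp outside the gene (chr19:11611452-11611790), at 3.79 and 5.31 at Day 12 and 15.3, 7.08 and 7.46 off Dox. At Tnfsf8, the CD30 ligand, a member 15317 bp outside the gene (chr4:63815712-63816059) scored 7.68 and 4.20, then 19, 17.0 and 6.93. Inside Itga9, an integrin alpha chain, the member (chr9:118659783-118660190) scored 2.44 and 4.24 at Day 12 and 23.1, 14.6 and 7.92 off Dox. The Itga9 member was thus weak in both Day 12 lists, and a summit below its threshold at Day 8 cannot be told from none. These 3 were chosen after their values were seen.

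The gene lists of cell types and pathways held few members. Over 20 lists with 277 different genes, of which 274 matched the gene table, 13 of 1315 regions were members (0.989%, 0.527 to 1.68), beside 0.792% of the 64638 regions assigned to any gene, so the lists lay near the background. Monocyte and macrophage genes held 1 of 64, at Adgre1, which encodes F4/80, with a member apart inside the gene (chr17:57359906-57360276) at 4.96 and 4.46 and at 3.64 at 8 days off. Known PU.1 targets held 2 of 131 (Csf2ra and Jun) and myeloid transcription factors 2 of 159 (Jun and Bhlhe40). The member assigned to Jun, an AP-1 subunit, lay 65391 bp from the gene. Bhlhe40, a stress-responsive repressor, had one 35541 bp away (chr6:108624900-108625277) at 10.4 and 5.27, with no summit off Dox.

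Inflammatory and cytokine genes held 2 of 115, at Nlrp3 and at Nfkb1, an NF-kappaB subunit. The Nfkb1 member was apart, inside the gene (chr3:135675507-135675837), at 5.82 and 8.03 at Day 12 and 8.90 at 4 days off. Eosinophil genes held 1 of 25, 10912 bp outside Ear2, and mast cell and basophil genes 1 of 16, at Ms4a2. Phagocytosis, oxidase and lysosome genes held 1 of 100 (Tfeb), myeloid kinases 1 of 132 (Lyn), stem and progenitor genes 1 of 104 (Kit), cell cycle genes 1 of 100, 77959 bp from Mki67, and housekeeping genes 1 of 52 (Ywhaz). Neutrophil and granulocyte genes (58 regions), dendritic cell genes (65), erythroid (18), megakaryocyte (56), B cell (17), T cell (33), interferon response (44), integrin and adhesion genes (116) and genes of non-blood tissues (18) held 0. With 0 of 116, the exact interval of the integrin and adhesion list reached up to 3.13%.

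None of the regions at the gene of PU.1, at the genes of the MAC1 integrin or at Csf1r was a member. Spi1 had 7 regions, Itgam 6, Itgb2 15 and Csf1r, the macrophage colony-stimulating factor receptor, 3, with 0 members each. Of the regions assigned to any gene 0.792% were members, so 0 among so few regions is no result about these genes. Itgam had a region inside the gene (chr7:128062490-128062790) that was called in total cells of Day 12 alone, at 4.36, and 1 outside the gene (chr7:128048754-128049054) called in CD11b-high cells alone, at 4.01. Accessibility calls at Itgam do not measure CD11b on the surface and are no check of the sort.

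Counted by gene, the 512 members assigned within 100 kb fell on 501 genes, 490 with 1 member and 11 with 2. Among the 11, Mnt, a repressor of the MYC network, had the highest sum of lower scores, with members at chr11:74837641-74838061 (15.9 and 20.6) and chr11:74829849-74830173 (14.9 and 9.45), both beside regions open in all 8 libraries and with no summit off Dox. Stim1, the calcium sensor of the endoplasmic reticulum, had 2 members apart inside the gene. One (chr7:102337866-102338279) scored 5.69 and 7.48, with 18.0 at 4 days off, and the other (chr7:102425928-102426238) scored 4.25 and 4.24 with none off Dox. Asap1, an Arf GTPase-activating protein, had 2 among 38 regions, at 4.64 and 4.57 and at 4.52 and 2.63, both open at 4 days off alone. The other genes with 2 were Kcnq5, Macir, Clasp1, Lamc1, Dnajb9, Zmat4, Rps23 and Pdlim1.

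At the edge of the rule, 2194 regions were open in both Day 12 lists and at Day 8 but not at Day 0 or 4, with a median score of 9.62 at Day 8. A further 104 were open in both and at Day 4 alone of the earlier days (median 7.57 there), and 142 at Day 0 alone (7.34). The median total score at Day 12 was 6.40, 5.69 and 5.86 in these sets, and 5.95 in the members. The lowest of the members' lower scores was 1.45, near the smallest score of the lists.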

How the data were processed

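Summit lists of 8 ATAC-seq libraries were used, 1 per group, with groups taken from the labels' titles. Per the labels, libraries were made from 50000 cells, selected for 200 to 700 bp and read as 75 bp pairs. The submitters' processing notes name Picard 2.14.0, MACS2 and build mm10. For the MACS2 version, aligner, threshold and depth, the sources used here give nothing. Each deposited summit score was taken for a −log10 p or q, since the smallest in each list lay between 1.30 and 1.39. Which of the 2 it is remains unknown.

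Only chromosomes 1 to 19, X and Y were kept, and summits were merged when at most 300 bp apart. The nearest protein-coding gene within 100 kb came from a RefSeq table of GRCm38.p6 (21887 genes), by distance of the region's midpoint to the gene span. Parts of genes such as exons were not analysed here. No genome sequence was used, so the planned motif search at summits was limited to RefSeq promoter windows. The members, lists and rules were chosen with earlier results of these data known. Genes and regions named were the 12 genes with most members (11 had 2; the next, Fam174a, had 1), the 12 members with the highest lower Day 12 score, the 6 highest open at all and at none of the times off, up to 4 genes per list, and Spi1, Itgam, Itgb2, Csf1r and Kit. A region named by this rule is not reported here. Others are marked in the text as chosen after their values were seen. The rules were run on simulated lists with known states and gave the known numbers of members and of open regions off Dox. The simulated regions lay at least 1 kb apart, so the run could not show how the merging handles closer summits, as at members beside. Alternatives were score minimums, extensions of 75 and 250 bp, a 1 kb exclusion, lists of equal length and a 10 kb gene limit. Python 3.11.15, pandas 2.3.3 and scipy 1.17.1 were used.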

Additional observations from a re-analysis of the deposited data

How the results depend on the processing

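The number of members, 553, was 254 at a score of at least 5 in both Day 12 lists, 335 with summits extended by 250 bp, 265 without regions that had a summit of Day 0, 4 or 8 within 1 kb, and 901 with lists of equal length. The last setting shortened the Day 12 lists as well as the early ones, and what raised the number was not tested. In the same order of settings, the share open at 4 days off was 32.7%, 48.1%, 51.7% and 26.6%, the share within 1 kb of a gene end 47.2%, 15.5%, 4.91% and 21.4%, and the share farther inside genes 29.1%, 43.6%, 48.3% and 40.3%. At 12 days off the first 3 settings gave 23.6%, 12.8% and 9.43%, and at 8 days off lists of equal length gave 20.2%. With only the off-Dox lists cut to equal length, a setting chosen after seeing the data, the shares at 4 and 8 days off were 19% and 16.5%. The value at 12 days off was then 17.5%, as with full lists, and the intervals of the 3 times overlapped. A score of at least 3 in every list and an extension of 75 bp moved none of the 6 counts and shares beyond its interval or 1.5 times. They gave 507 and 818 members, and 818 is only just within 1.5 times. Limiting genes to 10 kb left 9 of the 13 members at listed genes. No paired analysis was possible because each group held 1 library, and for the same reason no library could be left out of a group.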
